A study of Mus musculus with 12 samples.

Results

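Cytochrome P450 genes were followed through 12 arrays of sorted mouse liver cells and liver organoids. All genes whose symbol names a P450 family, subfamily and member, plus Cyp51, were taken. This gave 86 genes of 15 families among the 19937 genes with a row naming a single symbol. P450 enzymes are heme proteins that insert oxygen into their substrates, with electrons passed on from a reductase. Families 1, 2 and 3 handle mainly foreign compounds in the hepatocyte, family 4 fatty acids and eicosanoids, and the remaining families mostly cholesterol, bile acids, steroid hormones and vitamins. In liver many of the drug-metabolizing members mark mature hepatocytes and are zoned along the lobule. Cyp2e1 and Cyp1a2 are known from cells around the central vein, and Cyp2f2 from cells around the portal vein.

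RNA from C57Bl6 mice was hybridised in 4 groups of 3 libraries. Per the labels, the first group held YFP-positive liver cells obtained by FACS from animals without induction of Yap, called hepatocytes, and the second held wild-type organoids. The remaining groups held organoids from livers in which Yap, a transcriptional coactivator restrained by Hippo signalling, had been on for 3 weeks. These were then cultured for 2 weeks without doxycycline, which turned Yap off (the Yap-off organoids), or with doxycycline, which kept it on (the Yap-on organoids). The wild-type organoids were also cultured for 2 weeks. The promoter that drives Yap, the number of animals and any pooling are not given in the sources used here. The p-values therefore rest on the variation among these arrays alone, and that variation may be technical. Values are log2 intensities, and the array medians over all genes lay between 4.14 and 4.34.

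Hepatocyte-labelled and wild-type-labelled arrays were mixed rather than separated by label. Summed over 12 macrophage markers, the log2 intensity was 14.97 on hepatocyte-labelled array 2 and 14.11 and 14.74 on wild-type-labelled arrays 1 and 3. It was 8.60 and 9.04 on hepatocyte-labelled arrays 1 and 3 and 8.12 on wild-type-labelled array 2. Sums over 12 endothelial markers split in the same way, at 11.72, 13.68 and 12.91 against 7.57, 7.39 and 7.01. The part of these cells in any P450 result was not tested. Each comparison with these groups is given with and without hepatocyte-labelled array 2 and wild-type-labelled array 2, which differ from the rest of their groups. These 2 arrays were picked by their values, so the calls made without them describe the remaining arrays only. Whether any label is wrong cannot be told from these values. In the Yap-off and Yap-on organoids the same sums lay between 7.71 and 8.22 for macrophages and between 7.20 and 7.36 for endothelium. Of 9 biliary and ductal markers measured, 7 rose and 1 fell with Yap on, with a median log2 difference of 2.97, where 19.1% of all genes were called higher and 12% lower. The 14 measured hepatocyte markers, among them the P450 genes Cyp2e1, Cyp3a11, Cyp1a2 and Cyp2b10, all fell. The sum over 8 stellate cell and fibroblast markers lay between 8.44 and 8.62 with Yap off and between 6.46 and 6.52 with Yap on. Of these 8, 3 fell and 0 rose, and Reln fell by 4.34 and Dcn by 2.20. The part of these cells in the P450 differences was not tested.

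Of the 86 P450 genes, 52 lay above the array median in at least 1 library, and 34 did not in any. The number above the array median was 34 to 37 in the Yap-off organoids and 14 or 15 in the Yap-on organoids. It was 23, 32 and 24 in hepatocyte-labelled arrays 1, 2 and 3, and 35, 15 and 33 in wild-type-labelled arrays 1, 2 and 3. In 6 genes, Cyp2d22, Cyp4f13, Cyp4f16, Cyp20a1, Cyp39a1 and Cyp51, every library lay above it.

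**Figure D1:**
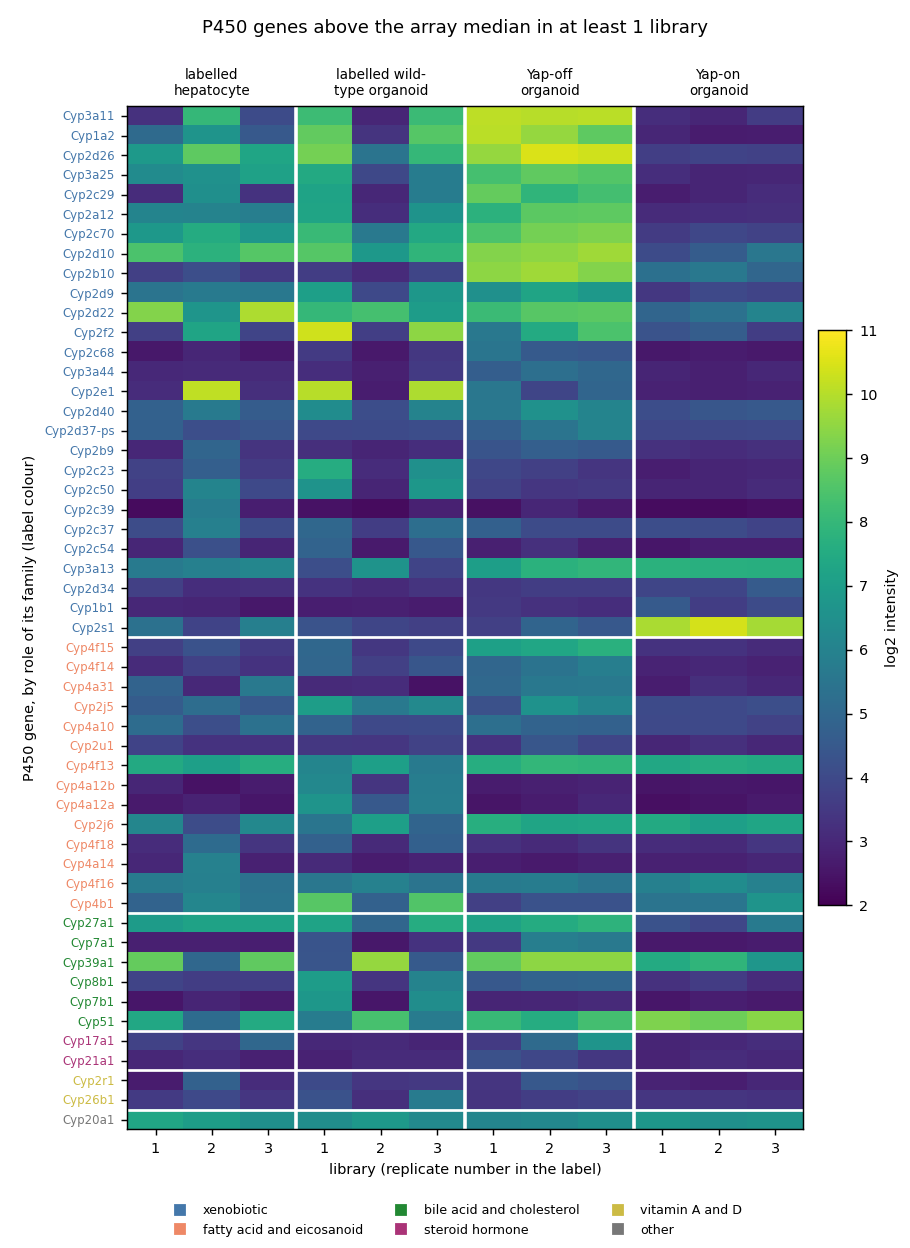
Log2 intensity (colour) of the 52 P450 genes above the array median in at least 1 library, in each of the 12 libraries (columns, by group as labelled). Genes are ordered within each role by their difference between Yap-on and Yap-off organoids. The top xenobiotic rows, such as Cyp3a11, Cyp1a2 and Cyp2d26, are bright in the 3 Yap-off libraries and dark in the 3 Yap-on libraries, and Cyp2s1 shows the reverse.

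Setting Yap-on against Yap-off organoids asks how keeping Yap on in culture affects genes of liver metabolism. These groups also differed in sex-linked transcripts, with Xist at 8.49 to 9.20 with Yap off and 3.14 to 3.20 with Yap on. Sex and Yap state therefore cannot be told apart here, and a fall or rise with Yap on names only the direction between the groups. With Yap on, 40 of the 86 P450 genes fell, 6 rose and 40 did not pass the test. Over all genes 12% were called lower, 19.1% higher and 31.2% in either direction (limma, adjusted p under 0.05). At least a 2-fold change was seen in 29 of the genes that fell and in 3 of those that rose. The libraries of the groups did not overlap in 66 of the 86 genes, against 53.5% of all genes, with 56 lower and 10 higher (28.9% and 24.6% of all genes). The median log2 difference was -0.40 for the P450 genes and -0.08 for all genes. Of the 52 genes above the array median somewhere, 31 fell and 4 rose. Some of them, such as Cyp3a44 and Cyp2c68, were above it only in Yap-off libraries, so this count leans towards falls. In bulk RNA, fewer cells of a type and less RNA per cell cannot be told apart. When the spread was estimated over all 12 arrays, 25 fell and 4 rose, with 4.36% and 7.09% of all genes called in these directions and 11.5% in either.

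**Figure D2:**
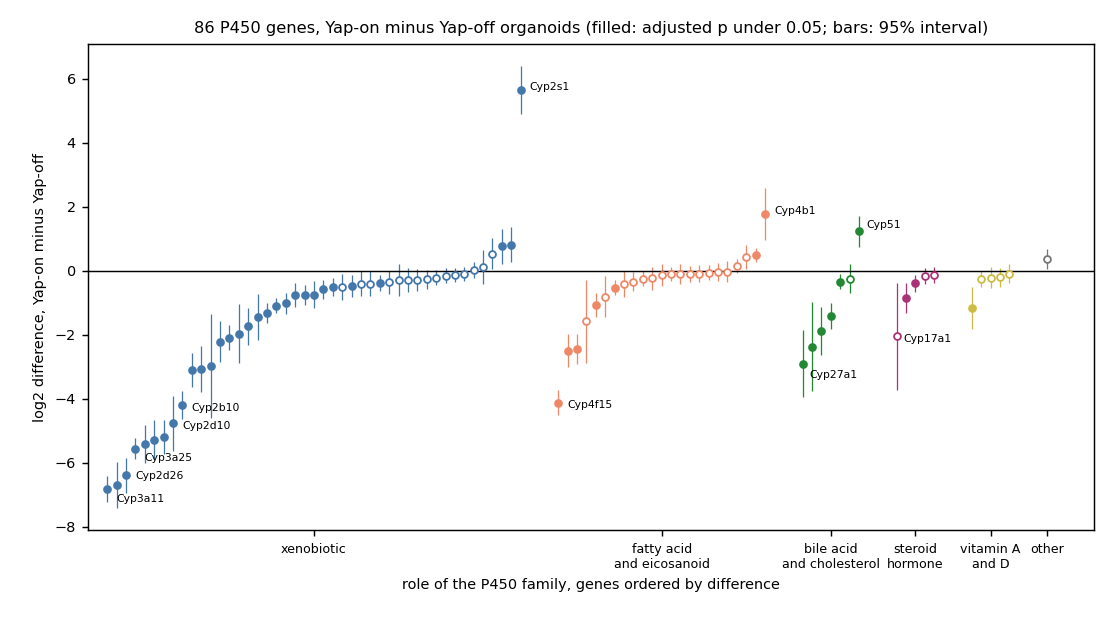
Log2 difference of Yap-on minus Yap-off organoids (vertical axis) for each of the 86 P450 genes, grouped by the role of the family, with 95% intervals from limma and filled points for adjusted p under 0.05. The xenobiotic genes reach from -6.81 for Cyp3a11 to 5.65 for Cyp2s1.

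Among the 45 genes of the xenobiotic families, 27 fell and 3 rose, with a median log2 difference of -0.74. Over all genes 12% were called lower and 19.1% higher, with a median of -0.08. The largest fall among the 86 was in Cyp3a11, the main mouse counterpart of the human drug-metabolizing CYP3A4. It stood at 10.09, 10.03 and 10.06 with Yap off, against 3.18, 2.96 and 3.61 with Yap on. All 3 Yap-off libraries were thus high and all 3 Yap-on libraries lay below the array median. The difference was -6.81 (SE 0.17, adjusted p = 6.22e-07). In hepatocyte-labelled arrays 1, 2 and 3 Cyp3a11 stood at 3.29, 8.01 and 4.05, and in wild-type-labelled arrays 1, 2 and 3 at 8.16, 2.98 and 8.15.

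Other members of family 3 differed among themselves. Cyp3a25 fell by 5.56 (SE 0.14, adjusted p = 6.72e-07) from 8.35, 8.81 and 8.59 in the Yap-off libraries to 3.16, 2.94 and 2.98 in the Yap-on libraries. Cyp3a44 fell by 2.09, Cyp3a16 by 0.76 and Cyp3a57 by 0.51. The call for Cyp3a57 was lost without the libraries labelled Yap-on 1, Yap-on 2 or Yap-off 3 (adjusted p up to 0.0794) and on all 12 arrays (0.231). Cyp3a13, which is known from the intestine as well as the liver, stood at 7.03, 7.75 and 7.93 with Yap off, against 7.74, 7.68 and 7.66 with Yap on. These groups overlapped, and the difference of 0.12 had a 95% interval from -0.41 to 0.66 (adjusted p = 0.681). Genes of the Cyp2c, Cyp2d, Cyp3a and Cyp4a clusters are close copies of each other, so a row of one can also report its neighbours.

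In family 1, Cyp1a2, which oxidises caffeine and aromatic amines, stood at 10.07, 9.58 and 8.78 with Yap off, against 2.96, 2.67 and 2.72 with Yap on. It fell by 6.69 (SE 0.31, adjusted p = 1.12e-05). Its inducible neighbour Cyp1a1 never exceeded the array median but also fell, by 1.02. Cyp1b1, the form found mainly outside the liver, moved the other way, from 3.50, 3.28 and 3.19 to 4.57, 3.64 and 4.06 (difference 0.77, SE 0.23, adjusted p = 0.0455). This call was lost when the libraries labelled Yap-on 1, Yap-on 3, Yap-off 2 or Yap-off 3 were left out, with adjusted p up to 0.118.

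Family 2 held 44 of the genes, of which 21 fell and 2 rose, against 12% and 19.1% of all genes. In the Cyp2d cluster 8 of 10 fell, among them the pseudogene Cyp2d37-ps. Cyp2d11 and Cyp2d13, also among them, lay below the array median in every library. The call for Cyp2d13 was lost in 5 of 6 fits without 1 library and on all 12 arrays (adjusted p = 0.273). That for Cyp2d11 was lost in 2 of 6 such fits, and that for Cyp2d40 on all 12 arrays (0.0687). Cyp2d26 fell by 6.39 (SE 0.23, adjusted p = 3.43e-06), from 9.59, 10.48 and 10.34 to 3.67, 3.82 and 3.76. Cyp2d10 fell by 4.77 and Cyp2d22 by 3.07. For these genes no Yap-on library reached the lowest Yap-off library. Cyp2d34 (3.46 to 3.63 with Yap off, 3.87 to 4.57 with Yap on) was the only member of the cluster with a positive difference, and it did not pass (0.53, adjusted p = 0.0843).

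In the Cyp2c cluster 7 of 13 fell and 1 rose, against 12% and 19.1% of all genes. The call for Cyp2c55 was lost in 4 of 6 fits without 1 library and on all 12 arrays (adjusted p = 0.0972). Those for Cyp2c50 and Cyp2c23 were lost in 2 and 1 of these fits and on all 12 arrays (0.728 and 0.613). Cyp2c29, an arachidonic acid epoxygenase, fell by 5.42 (SE 0.25, adjusted p = 1.13e-05) from 8.87, 7.89 and 8.32 to 2.73, 2.95 and 3.13. Cyp2c70, which hydroxylates bile acids to muricholic acids in mice, fell by 5.20 from 8.45, 9.12 and 9.27 to 3.57, 3.91 and 3.76. Cyp2c65, known from the intestine, rose by 0.82 (adjusted p = 0.0362), at 2.36 to 2.75 with Yap off and 2.85 to 3.73 with Yap on. Every library was below the array median for Cyp2c65. Its call was lost without the libraries labelled Yap-on 1, Yap-on 3, Yap-off 1 or Yap-off 3 (adjusted p up to 0.12), with the replicate block (0.0709) and after adding 16 to the intensity (0.0832).

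Cyp2b10, the classical target of the xenobiotic receptor CAR, differed in pattern from Cyp3a11. It stood at 9.48, 9.71 and 9.32 with Yap off, against 5.32, 5.61 and 4.97 with Yap on, a fall of 4.20 (SE 0.19, adjusted p = 9.31e-06). The 6 hepatocyte-labelled and wild-type-labelled arrays lay between 3.12 and 4.17, below all of these. Unlike Cyp3a11, Cyp2b10 was therefore not high in hepatocyte-labelled array 2 and wild-type-labelled arrays 1 and 3. Its neighbour Cyp2b9 fell by 1.32, a call lost on all 12 arrays (adjusted p = 0.0626), and Cyp2b13, Cyp2b19 and Cyp2b23 did not pass. Cyp2a12, a steroid hydroxylase of liver, fell by 5.27, from 7.79, 8.73 and 8.78 to 3.10, 3.18 and 3.22.

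Of the 3 zoned genes named at the start, Cyp1a2 was high in all Yap-off libraries (8.78 to 10.07), but Cyp2e1 and Cyp2f2 were not. Cyp2e1, which oxidises ethanol, stood at 5.58, 3.89 and 4.93 with Yap off and at 2.85, 2.80 and 2.86 with Yap on. The library labelled Yap-off 2 was below its array median of 4.22. In hepatocyte-labelled array 2 and wild-type-labelled arrays 1 and 3, Cyp2e1 stood at 10.14, 10.03 and 9.90, far above every Yap-off library. Its fall of 1.96 with Yap on passed on the 6 arrays (SE 0.39, adjusted p = 0.00939) but not on all 12 (0.589). Cyp2f2 spread widely within the Yap-off group, at 5.60, 7.50 and 8.44, against 4.30, 4.66 and 3.64 with Yap on. Its fall of 2.98 (SE 0.68, adjusted p = 0.0167) was lost without the libraries labelled Yap-on 1 or Yap-on 3 (adjusted p up to 0.0606) and on all 12 arrays (0.273).

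**Figure D3:**
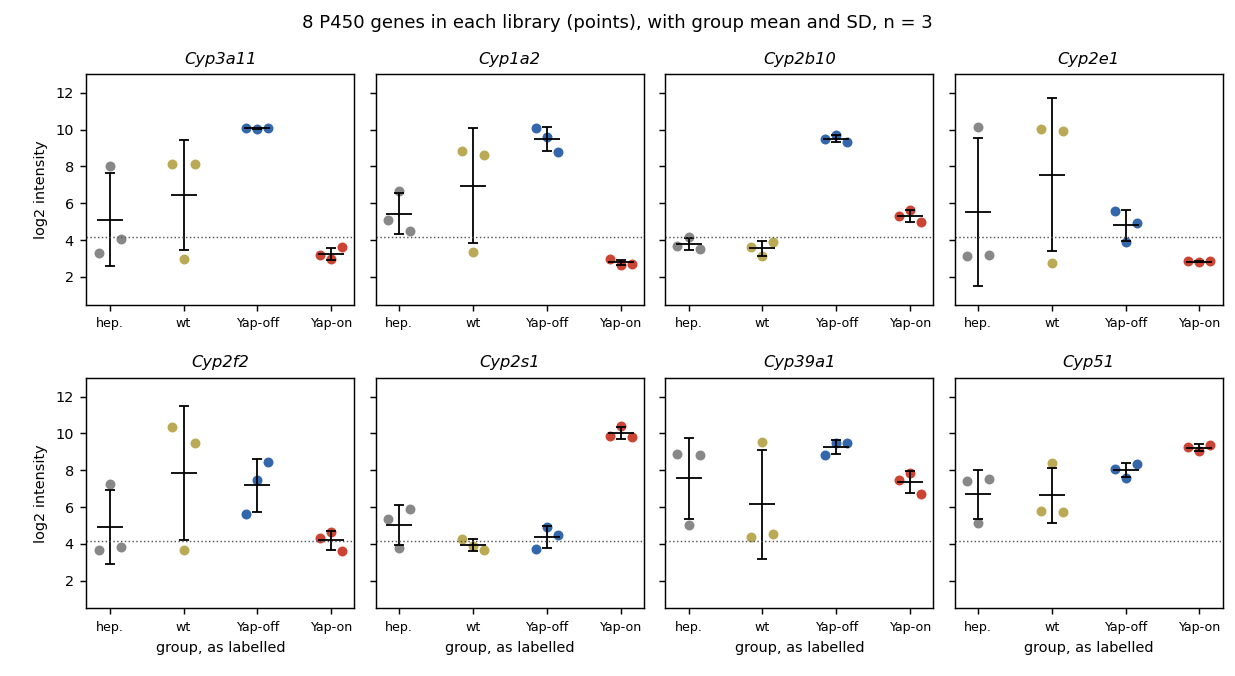
Log2 intensity of 8 P450 genes in each library (points), with the mean and SD of each group of 3 as labelled; the dotted line is the median of the array medians. Cyp3a11, Cyp1a2 and Cyp2b10 are high in all Yap-off libraries, Cyp2e1 stands at 10.14, 10.03 and 9.90 only in hepatocyte-labelled array 2 and wild-type-labelled arrays 1 and 3, and Cyp2s1 is high in the Yap-on libraries.

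Cyp2s1, a P450 of epithelia outside the liver such as airway, stomach and skin, rose with Yap on. It stood at 3.71, 4.90 and 4.48 with Yap off, against 9.86, 10.41 and 9.80 with Yap on. The difference was 5.65 (SE 0.32, adjusted p = 3.08e-05). The hepatocyte-labelled arrays lay at 5.36, 3.81 and 5.87 and the wild-type-labelled arrays at 4.29, 3.87 and 3.69, so that every Yap-on library was above every other library. The biliary and ductal markers as a sum were also higher with Yap on than with Yap off. Their summed log2 intensity was 13.33 to 13.53 with Yap on and 10.68 to 11.05 with Yap off. Their part in the result was not tested.

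The bases just before the transcription start were searched in RefSeq promoters (GRCm38.p6) for 5 motifs on both strands. A total of 71 windows of 250 bases were found for 63 of the 86 genes. The core of the binding site of HNF4A, a nuclear receptor that maintains hepatocyte genes, is CAAAGTCCA. It occurred in 7 of the 71 P450 windows (9.86%) and in 126 of 32851 windows of all genes (0.384%). The 7 stretches are shown to compare their surroundings, with the core in capitals and each read 5′ to 3′ along its gene:
Cyp3a11 (chr5:145879935-145879983, minus strand): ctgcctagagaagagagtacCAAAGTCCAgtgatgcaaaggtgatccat
Cyp3a16 (chr5:145469794-145469842, minus strand): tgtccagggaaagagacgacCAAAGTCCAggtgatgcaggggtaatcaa
Cyp2c65 (chr19:39060870-39060918, plus strand): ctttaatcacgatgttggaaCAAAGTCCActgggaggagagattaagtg
Cyp2c67 (chr19:39649139-39649187, minus strand): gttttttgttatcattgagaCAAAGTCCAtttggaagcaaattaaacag
Cyp2c68 (chr19:39741150-39741198, minus strand): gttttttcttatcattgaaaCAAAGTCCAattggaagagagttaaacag
Cyp2c70 (chr19:40187322-40187370, minus strand): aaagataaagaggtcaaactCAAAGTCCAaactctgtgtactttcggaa
Cyp8b1 (chr9:121916344-121916392, minus strand): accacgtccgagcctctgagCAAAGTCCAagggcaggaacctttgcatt

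The core began between 64 bases (Cyp2c70) and 125 bases (Cyp2c67) before the start. The surroundings of Cyp2c67 and Cyp2c68, and those of Cyp3a11 and Cyp3a16, look alike, as these are close copies, so the 7 are not independent. Of these genes 6 fell with Yap on and Cyp2c65 rose. Among all 86 P450 genes 40 fell and 6 rose, and of all genes 12% were called lower and 19.1% higher. Cyp2c67 fell by 1.09 and Cyp2c68 by 2.21, the latter from 5.51, 4.54 and 4.45 to 2.57, 2.69 and 2.62. Cyp2c65, Cyp2c67 and Cyp3a16 were below the array median in every library. Whether the core goes with the direction was not tested. The match describes letters and does not show binding. The xenobiotic response element core GCGTG occurred in 21.1% of P450 windows and 28.2% of all windows, and the TEAD core GGAATG in 11.3% and 12.6%. Of 14 P450 genes with the xenobiotic response element core 4 fell and 2 rose, and of 8 with the TEAD core 4 fell and 0 rose. The sterol regulatory element TCACNCCAC was in 0 of the P450 windows and 1.05% of all windows, and the HNF1 palindrome in 0 of the P450 windows and 3 of all windows.

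The window of Cyp3a11, the gene with the sharpest fall, and that of Cyp2s1, the gene with the sharpest rise, are given whole to set them side by side. The capitals mark the HNF4A core in Cyp3a11. None of the 5 motifs was found in the window of Cyp2s1. The windows of Cyp1a2, which fell by 6.69, and of Cyp2e1 also held none of them. That of Cyp2b10, which fell by 4.20, had a TEAD core but no HNF4A core. This pair of windows therefore does not tie a motif to a direction.
Cyp3a11 (chr5:145879855-145880104, minus strand): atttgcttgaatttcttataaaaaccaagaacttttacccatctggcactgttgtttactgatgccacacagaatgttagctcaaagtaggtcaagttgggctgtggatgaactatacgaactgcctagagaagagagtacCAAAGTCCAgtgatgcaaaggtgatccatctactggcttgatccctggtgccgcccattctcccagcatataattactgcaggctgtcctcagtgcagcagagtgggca
Cyp2s1 (chr7:25816526-25816775, minus strand): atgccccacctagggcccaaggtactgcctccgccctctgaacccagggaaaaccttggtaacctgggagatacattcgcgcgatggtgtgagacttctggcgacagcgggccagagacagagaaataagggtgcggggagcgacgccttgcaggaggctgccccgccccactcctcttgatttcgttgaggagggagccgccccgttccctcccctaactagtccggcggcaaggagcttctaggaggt

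Of the 23 genes that act on fatty acids and eicosanoids (family 4, Cyp2j and Cyp2u1), 5 fell and 2 rose, with a median log2 difference of -0.12. The share called in either direction was close to the 31.2% of all genes, whose median was -0.08. By direction, falls outnumbered rises here, where 12% of all genes were called lower and 19.1% higher. Cyp4f15, an omega-hydroxylase of fatty acids, fell by 4.13 (SE 0.16, adjusted p = 5.81e-06) from 7.12, 7.31 and 7.71 to 3.32, 3.32 and 3.12. Cyp4f14 fell by 2.49, Cyp4a31 by 2.45 and Cyp4a10 by 1.07. Cyp4a10, a target of PPAR-alpha, lost its call on all 12 arrays (adjusted p = 0.0676). The difference in Cyp4f40 was small (-0.52), with every library below the array median.

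Cyp4b1, a P450 of lung and other epithelia, rose from 3.72, 4.28 and 4.25 to 5.46, 5.49 and 6.66 (difference 1.79, SE 0.34, adjusted p = 0.00863). All Yap-on libraries lay above all Yap-off libraries. The libraries labelled wild-type organoid 1 and 3 were higher still, at 8.65 and 8.57, and the call was lost on all 12 arrays (0.231). The pseudogene Cyp4f41-ps also passed, with a difference of 0.49 and all libraries below the array median. Cyp2j6, a fatty acid epoxygenase, stood at 7.25 to 7.63 with Yap off and 7.10 to 7.45 with Yap on. Its difference of -0.12 had a 95% interval from -0.46 to 0.23. Cyp2j5 stood at 4.25, 6.57 and 6.05 with Yap off, against 3.99 to 4.15 with Yap on, and its difference of -1.57 did not pass (adjusted p = 0.068). It passed when Yap-off library 1 was left out (-2.26, adjusted p = 0.000269), without the lowest genes (0.0394) and with the intensity trend (0.0445).

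Of 7 genes of bile acid and cholesterol metabolism, 5 fell and 1 rose, where 12% of all genes were called lower and 19.1% higher. Cyp27a1, the mitochondrial sterol 27-hydroxylase, stood at 7.20, 7.53 and 7.81 with Yap off and at 4.26, 3.92 and 5.66 with Yap on. The groups did not overlap, and it fell by 2.90 (SE 0.44, adjusted p = 0.00306). Cyp39a1, which hydroxylates oxysterols, fell by 1.89 from 8.83, 9.47 and 9.47 to 7.49, 7.88 and 6.73 (adjusted p = 0.00473), so that it stayed above the array median in every library. Its pattern in the other groups was opposite to that of Cyp2e1. Cyp39a1 stood at 8.87, 8.81 and 9.56 in hepatocyte-labelled arrays 1 and 3 and wild-type-labelled array 2, and at 5.01, 4.36 and 4.55 in hepatocyte-labelled array 2 and wild-type-labelled arrays 1 and 3. On all 12 arrays the call for Cyp39a1 was lost (0.406).

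Cyp7a1, the rate-limiting enzyme of bile acid synthesis, stood at 3.50, 5.86 and 5.64 with Yap off and at 2.60, 2.62 and 2.67 with Yap on. The library labelled Yap-off 1 was the closest to the Yap-on values. The fall of 2.36 (SE 0.58, adjusted p = 0.022) was lost in each fit without 1 library other than Yap-off 1 (adjusted p up to 0.0738). When that library was left out, Cyp7a1 fell by 3.12 (adjusted p = 9.18e-06). Cyp8b1, which directs synthesis towards cholic acid, fell by 1.41 from 4.48, 4.85 and 4.95 to 3.28, 3.60 and 3.16 (adjusted p = 0.00116, and 0.227 on all 12 arrays). Cyp7b1 was below the array median in all Yap-off and Yap-on libraries, and its fall of 0.33 (adjusted p = 0.0466) was lost under 5 of 6 fits without 1 library, on all 12 arrays (0.84), with the replicate block and under both other scalings. Cyp46a1 did not pass.

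Cyp51, the lanosterol demethylase of cholesterol synthesis, rose by 1.24 (SE 0.20, adjusted p = 0.00443). It stood at 8.08, 7.58 and 8.32 with Yap off and at 9.26, 9.03 and 9.40 with Yap on, without overlap. In hepatocyte-labelled arrays 1, 2 and 3 it was at 7.40, 5.15 and 7.51, and in wild-type-labelled arrays 1, 2 and 3 at 5.80, 8.38 and 5.76. The call was lost on all 12 arrays (adjusted p = 0.323).

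Steroid hormone and vitamin genes were mostly low. Their calls stand against 12% of all genes called lower and 19.1% higher. Of 5 genes of steroid hormone synthesis, Cyp21a1 fell by 0.84 (adjusted p = 0.019) and Cyp11b2 by 0.39 (0.0368). Cyp21a1 was above the array median in only 1 library and Cyp11b2 in none. Both calls were lost in 4 of 6 fits without 1 library, with adjusted p up to 0.0771 for Cyp21a1 and 0.135 for Cyp11b2, and that of Cyp11b2 also on all 12 arrays (0.0766) and under both other scalings. Cyp17a1, the steroid 17-hydroxylase, spread over 3.51, 5.10 and 6.67 in the Yap-off libraries, against 2.93, 3.02 and 3.19 with Yap on. With an SE of 0.70, the difference of -2.05 missed the threshold (adjusted p = 0.0659). It passed when Yap-off library 1 was left out (-2.84, adjusted p = 0.00388), with the replicate block (0.0491) and without the lowest genes (0.037). Of 5 genes of vitamin A and D metabolism, Cyp2r1, the vitamin D 25-hydroxylase of liver, fell by 1.16 (adjusted p = 0.0193), a call lost in 4 of 6 fits without 1 library (adjusted p up to 0.0709) and on all 12 arrays (0.159). The retinoic acid hydroxylases Cyp26a1, Cyp26b1 and Cyp26c1 and the vitamin D 1-hydroxylase Cyp27b1 did not pass. Cyp20a1, an orphan P450, stood at 6.11 to 6.47 with Yap off and 6.52 to 6.77 with Yap on, and its difference of 0.37 did not pass (adjusted p = 0.0704).

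Sex affects many mouse liver P450 genes, and the organoid groups differed in sex-linked transcripts. Xist lay between 8.49 and 9.20 in the Yap-off libraries and between 3.14 and 3.20 in the Yap-on libraries, and the Y-linked Eif2s3y between 2.50 and 2.85 against 7.13 and 7.42. Sex and Yap state cannot be told apart between these groups. The same holds for Yap-off against wild-type-labelled arrays, on which Xist was 3.14 to 3.30 and Eif2s3y 6.19 to 7.11. Hepatocyte-labelled arrays 1 and 3 had Xist within the range of the Yap-off libraries, so once hepatocyte-labelled array 2 is left out, the hepatocyte group differs in sex-linked transcripts from the Yap-on and wild-type-labelled arrays too. Among genes known as female-predominant, Cyp2b9 and Cyp3a44 stood at 4.34 to 4.74 and 4.69 to 5.30 in the Yap-off libraries and below the array median in the Yap-on libraries. On hepatocyte-labelled arrays 1, 2 and 3 Cyp2b9 stood at 3.01, 4.92 and 3.37 and Cyp3a44 at 3.05, 3.06 and 3.08. Their values on the wild-type-labelled arrays were 2.92 to 3.23 and 2.79 to 3.53. Cyp2b13 was low in both Yap-off and Yap-on libraries, at 2.56 to 2.75 and 2.49 to 2.56, and did not pass. Cyp3a16 was below the array median in every library, at 2.77 to 3.15 with Yap off and 2.20 to 2.32 with Yap on. Cyp17a1 is given above. Among male-predominant genes, Cyp2d9 was also higher in the Yap-off libraries, at 6.51, 7.25 and 6.80 against 3.45, 3.98 and 3.83. Cyp4a12a, which is male-specific in adult liver, was at 2.38 to 3.02 in all Yap-off and Yap-on libraries. It stood at 6.65, 4.50 and 5.86 on the wild-type-labelled arrays and at 2.56 to 2.85 on the hepatocyte-labelled arrays. Hepatocyte-labelled array 2, with Xist at 3.00, had Cyp4a12a at 2.85. Cyp4a12b, also male-predominant, had 6.20, 3.38 and 5.83 on the wild-type-labelled arrays and 2.45 to 2.97 on all others. Cyp7b1 had 6.78, 2.53 and 6.41 on the wild-type-labelled arrays and 2.56 to 3.08 on all others.

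The enzymes and regulators on which P450 genes depend changed in part. Of 41 measured genes on 4 lists, 20 fell and 6 rose, where 12% of all genes were called lower, 19.1% higher and 31.2% in either direction. Among 13 genes of electron supply and heme synthesis 5 fell and 1 rose. Alas1, the rate-limiting enzyme of heme synthesis in liver, fell by 1.20 (SE 0.13, adjusted p = 0.00076), from 8.17, 7.82 and 8.24 to 6.87, 6.82 and 6.94. Fech, which inserts the iron, and the electron donor Cyb5a each fell by 0.85. Ppox rose by 0.92. These differences were small beside those of Cyp3a11 or Cyp1a2.

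Among 14 receptors and sensors 8 fell and 2 rose, against 12% and 19.1% of all genes. Nr1i3, which encodes CAR, fell by 1.74 (SE 0.21, adjusted p = 0.00118), from 5.45, 4.73 and 5.48 to 3.57, 3.35 and 3.53. In the hepatocyte-labelled and wild-type-labelled arrays Nr1i3 lay between 3.52 and 4.50, so that it, like Cyp2b10, was above all of these in the Yap-off libraries. With Yap on, Nr1i3 lay within or below that range, while Cyp2b10, at 4.97 to 5.61, stayed above all these arrays. Nr1i2, which encodes PXR, fell by 0.98. Ppara, the fatty acid receptor, fell by 2.33, its partner Rxra by 1.90, the oxysterol receptor Nr1h3 by 2.87 and Nr5a2 by 2.08. The aryl hydrocarbon receptor Ahr fell by 0.52 (adjusted p = 0.0425). Vdr, the vitamin D receptor, rose by 1.53.

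Of 12 liver-enriched transcription factors 7 fell and 3 rose, against 12% and 19.1% of all genes. Prox1 fell by 4.01, Foxa3 by 3.07, Foxa1 by 1.97 and Cebpa by 1.81. Hnf4a fell by 0.98 (SE 0.11, adjusted p = 0.000781) but stood at 8.56, 8.64 and 8.42 with Yap on, against 9.41, 9.62 and 9.53 with Yap off. All Yap-on libraries thus remained far above the array median for Hnf4a. Onecut2, Onecut1 and Foxa2 rose by 1.48, 1.09 and 0.65. Tbxas1 and Ptgis, P450 enzymes whose symbols lack the Cyp prefix, did not pass. On all 12 arrays 11 of the 41 genes were called, 10 lower and 1 higher, against 11.5% of all genes in either direction.

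**Figure D4:**
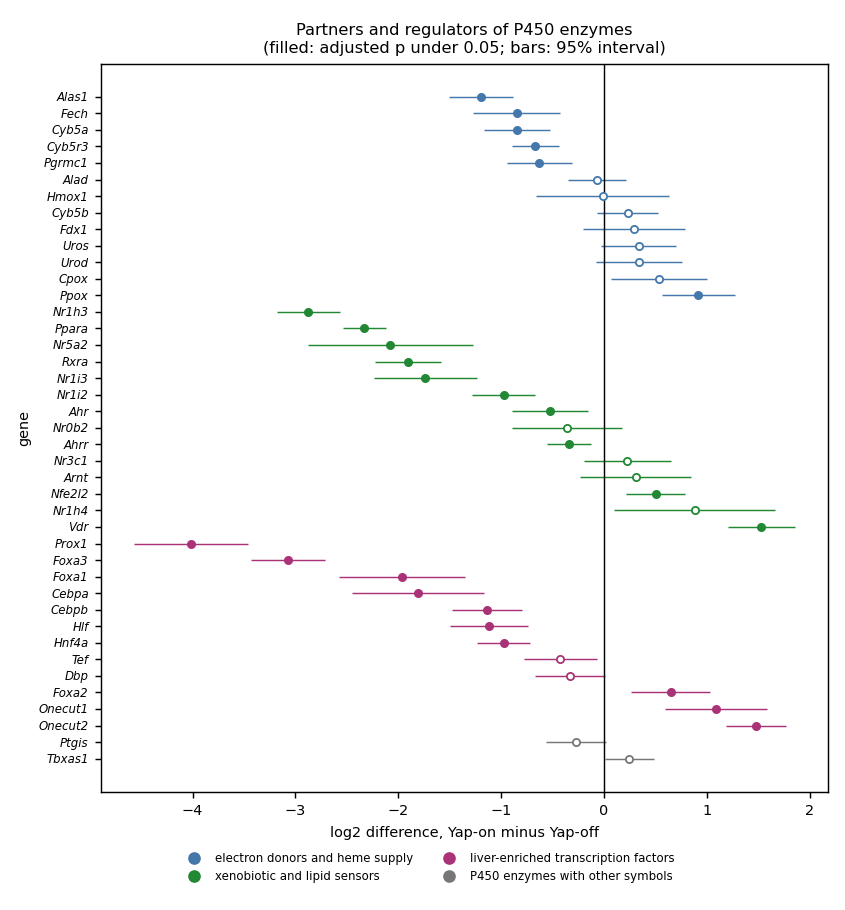
Log2 difference of Yap-on minus Yap-off organoids (horizontal axis) for 41 partners and regulators of P450 enzymes, by list (colour), with 95% intervals from limma and filled points for adjusted p under 0.05. Prox1 lies farthest to the left at -4.01 and Vdr farthest to the right at 1.53.

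The comparisons with the wild-type-labelled arrays ask how organoids from livers exposed to Yap differ from those that were not, but for Yap-off organoids sex-linked transcripts differ as well. For Yap-off organoids 2 P450 genes were called, both higher, where 0.306% of all genes were called, 0.246% higher and 0.0602% lower. Cyp2b10 was higher by 5.95 (SE 0.24, adjusted p = 0.00143), and Cyp4a31 by 2.54 (adjusted p = 0.0365). Without wild-type-labelled array 2, 31 were called against 23.3% of all genes, 21 higher and 10 lower (13% and 10.3% of all genes). Those higher included Cyp39a1 (4.80), Cyp3a13 (3.55), Cyp4f15 (2.90) and Cyp51 (2.21), and those lower Cyp2e1 (-5.17), Cyp4b1 (-4.53), Cyp7b1 (-3.60), Cyp2c23 (-3.38) and Cyp8b1 (-1.75). With all libraries kept and the spread taken from all 12 arrays, 10 were called against 2.61% of all genes.

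For Yap-on organoids 4 were called against 3.51% of all genes, 2.45% higher and 1.06% lower. Cyp2s1 (6.07) and Cyp2b10 (1.75) were higher, and Cyp4a12a (-3.17) and Cyp2j5 (-2.25) lower. Without wild-type-labelled array 2 the count was 47 against 42% of all genes, 36 lower and 11 higher (16.1% and 25.9% of all genes). Cyp2e1 (-7.13), Cyp1a2 (-5.96), Cyp2f2 (-5.72) and Cyp3a11 (-4.90) then headed the genes that were lower. With all libraries kept, the fit on all 12 arrays called 13 against 5.47% of all genes. Both comparisons share these control libraries.

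Against the hepatocyte-labelled arrays, 5 genes were higher in Yap-off organoids and none lower, where 0.717% of all genes were called, 0.482% higher and 0.236% lower. They were Cyp2b10 (5.70, adjusted p = 0.00299), Cyp4f15 (3.55), Cyp2a12 (2.45), Cyp3a44 (1.93) and Cyp3a25 (1.90). Without hepatocyte-labelled array 2, 22 were higher and 0 lower, against 3.36% and 5.9% of all genes, or 9.26% in either direction. Cyp3a11 was then higher by 6.39, Cyp2c29 by 5.14 and Cyp1a2 by 4.67. With all libraries kept, 5 genes were called on all 12 arrays, all higher, against 1.9% of all genes. At an unadjusted p under 0.05 on the 6 arrays the count of P450 genes was 27 (31.4%), against 12.5% of all genes.

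In Yap-on organoids 14 genes were called against the hepatocyte-labelled arrays, where 8.82% of all genes were called. Of these, 5 were higher and 9 lower, against 6.28% and 2.54% of all genes. Cyp2s1 (5.01), Cyp3a13 (1.78) and Cyp2b10 (1.50) were higher. Cyp2d26 (-3.89), Cyp3a25 (-3.66), Cyp2d10 (-3.54), Cyp2c70 (-3.28) and Cyp2a12 (-2.82) were lower. Without hepatocyte-labelled array 2 it was 30 against 32.4% of all genes, 7 higher and 23 lower (17.8% and 14.7% of all genes), and Cyp2d22 (-4.17) had the most negative difference. With all libraries kept, the fit on all 12 arrays called 9 against 6.19% of all genes.

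Between the wild-type-labelled and hepatocyte-labelled arrays limma called 0 of the P450 genes and 0 of all genes, and 5 P450 genes (5.81%) had an unadjusted p under 0.05, against 3.67% of all genes. The fit on all 12 arrays also called 0 of the P450 genes, against 0.0502% of all genes. Without hepatocyte-labelled array 2 and wild-type-labelled array 2, which leaves 2 against 2 that also differ in Xist (3.30 and 3.26 against 8.82 or higher), 31 P450 genes were called against 24.8% of all genes. Of these, 23 were higher in the wild-type-labelled arrays, led by Cyp2e1 (6.78), Cyp2f2 (6.16) and Cyp3a11 (4.48), and 8 lower (9.69% and 15.1% of all genes), led by Cyp39a1 (-4.38) and Cyp4a31 (-2.50).

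**Figure D5:**
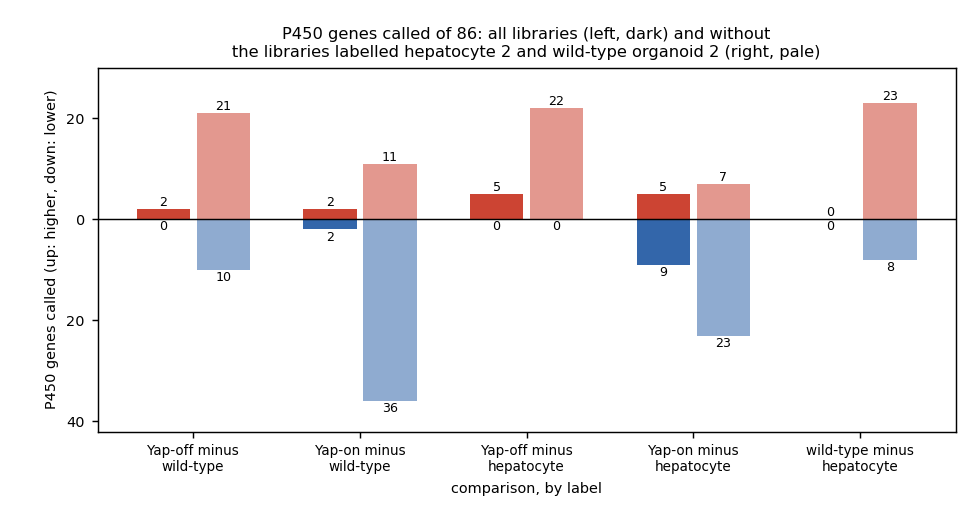
Number of the 86 P450 genes called higher (up) or lower (down) in each of 5 comparisons, by label, with all libraries (dark bars) and without hepatocyte-labelled array 2 and wild-type-labelled array 2 (pale bars). The counts range from 0 called between wild-type organoid and hepatocyte to 47 called for Yap-on minus wild-type organoid without wild-type-labelled array 2.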

How the data were processed

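The deposited values are intensities on a linear scale that the authors made with RMA, per the submitters' processing notes; no version or genome build is given in the sources used here. Log2 was taken. Of 34760 array rows, 21640 named 1 gene, and per gene the row of highest mean was kept, with no filter on low values. Each P450 gene had 1 row; 7 rows naming several genes, P450 genes among them, were left out. Each comparison was fitted on its 6 arrays with limma 3.58.1 (lmFit, eBayes; R 4.3.3), because the groups differ in spread, and p-values were adjusted by Benjamini-Hochberg over 19937 genes, called under 0.05. Its recovery of known changes was tested on simulated data. Permuting 3 against 3 arrays gives no two-sided p under 0.1 and was not done. Precision is limited by the number of arrays, and the size of a fall by low levels. Members, lists and alternatives were chosen with earlier results of these data known; motifs and sex-predominant genes were chosen after the values were seen. Any P450 gene could be named. Values in every library were to be given for 4 marker genes and, per family, for the member with the highest mean and up to 3 called genes each way; those given for further genes were chosen after the values were seen. Lists were counted, not tested. The alternatives were renewed quantile normalization, median centring, the mean of a gene's rows, leaving out the 30% lowest genes, adding 16 before log2, all 12 arrays, an intensity trend with robust eBayes, a replicate block, adjusted p under 0.01 and leaving out libraries.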

Additional observations from a re-analysis of the deposited data

How the results depend on the processing

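Between Yap-on and Yap-off organoids 46 P450 genes were called, and 31 to 52 under the alternatives within 1.5 times of this; no called gene changed direction under any alternative run. With the spread taken from all 12 arrays 29 P450 genes and 11 partner genes were called, and the counts against wild-type-labelled arrays were 10 (Yap-off) and 13 (Yap-on), and 9 for Yap-on against hepatocyte-labelled arrays. Against wild-type organoid, Yap-off gave 1 call and Yap-on 2 after adding 16, and 4 and 7 with the intensity trend; Yap-on gave 8 without the lowest genes. Yap-off against hepatocyte gave 3 after adding 16. At adjusted p under 0.01 the counts were 1 and 1 against wild-type organoid and 1 and 7 against hepatocyte, for Yap-off and Yap-on. Without hepatocyte-labelled array 2 and wild-type-labelled array 2 they were 31 and 47 against wild-type organoid, 22 and 30 against hepatocyte, and 31 between those 2 groups. These 2 arrays were picked because their values differ from the rest of their groups. Once they are left out, their distance from the group no longer counts in the spread behind the p-values. Calls over all genes rose too, from 0.306% to 23.3% for Yap-off against wild-type organoid. How much of the shifts this accounts for was not tested, nor was the cause of the other shifts.

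Leaving out 1 library gave 32 to 54 called P450 genes and 22 to 26 partner genes for Yap-on against Yap-off, 1 to 31 (Yap-off) and 1 to 47 (Yap-on) against wild-type organoid, 0 to 22 and 6 to 30 against hepatocyte, and 0 to 3 for wild-type organoid against hepatocyte. Where 2 libraries remain in a group, their spread is pooled with the other group's.

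Groups share replicate numbers, but same-numbered libraries did not deviate together in Yap-on and Yap-off organoids (correlations 0.07, 0.03 and -0.06), so the numbers were not taken to pair them. With the replicate block 44 P450 genes were called there, 0 (Yap-off) and 1 (Yap-on) against wild-type organoid, and 0 and 8 against hepatocyte. Centring the arrays moved the median difference of all genes between wild-type organoid and hepatocyte from -0.03 to -0.13. Signal near background limits the size of a fall for genes below the array median.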

Other observations

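Rows that name several P450 genes were left out of all counts, and their values are given without a test. The row shared by Cyp3a41b, Cyp3a44 and Cyp3a41a stood at 9.76, 9.61 and 9.43 with Yap off, against 2.34, 2.38 and 2.98 with Yap on. Hepatocyte-labelled arrays 1, 2 and 3 had 2.02, 7.70 and 2.36, and wild-type-labelled arrays 1, 2 and 3 had 6.51, 2.21 and 8.34. The row shared by Cyp2a5 and Cyp2a4 stood at 5.44, 4.53 and 4.47 with Yap off and at 4.38, 4.37 and 3.48 with Yap on. The row shared by Cyp4v3 and Klkb1 stood at 6.70, 6.90 and 6.52 with Yap off and at 3.72, 3.75 and 3.97 with Yap on.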
